A study of Rattus norvegicus with 9 samples.

Results

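Wbp11, Wbp11l1, Gtpbp6, gene-Katnbl1, Robo3, Pidd1 and Cfap99 are 7 of the 18964 genes in a count table of rat gastric lymphatic vessels. They are named here because counts were near 0 in most or all libraries of a group and clearly above 0 in another group. Wbp11l1 is the exception, named because it mirrors Wbp11. The 7 genes were chosen from their own counts in the contrasts described here, so their levels are given as a description, with no test. All 7 passed the filter on low counts, which adds nothing, since a gene that is high in 1 group passes through that group. The prefix in gene-Katnbl1 is part of the row's name, and a separate row is called Katnbl1.

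RNA-seq was made from vessels of male Sprague-Dawley rats of wild-type genotype, weighing 180 to 220 g and fasted for 12 h. The BXD libraries came from rats stressed by 4 h of immersion in 15 cm of water at 22 °C and gavaged 30 min later with BXD, a preparation that the labels name only by these letters, at 10 ml/kg. The model libraries came from rats given the same stress and a gavage without BXD, which the sample label calls saline and the protocol calls distilled water. The control libraries came from unstressed rats, labelled Blank, that the protocol says were gavaged with distilled water. Each group has 3 libraries, and the labels do not say how they relate to the 6 rats of each group, so p-values measure the spread between libraries, which may be technical. No source used here gives the age of the rats, and an omeprazole group named in the protocol is not analysed here.

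Totals per library lay between 12313813 and 13455705 counts, and 3 counts in a library correspond to 0.195 to 0.269 CPM, counts scaled by the library total and its TMM normalization factor. All 6 lymphatic endothelial markers examined (Prox1, Lyve1, Pdpn, Flt4, Ccl21 and Pecam1) were present, with a summed level of 817 to 988 CPM in BXD, 612 to 904 CPM in model and 704 to 721 CPM in control libraries. Single markers in this sum moved in different directions. Prox1 ran from 32.8 to 73.8 CPM in BXD, 13.9 to 30.4 CPM in model and 68.1 to 100 CPM in control libraries. Lyve1 ran from 234 to 286, 196 to 304 and 85.5 to 91.4 CPM in the same order. Adipocyte markers (4 of 4 present) summed to 4318 to 6572 CPM in BXD, 7531 to 15234 CPM in model and 2803 to 3784 CPM in control libraries, and smooth muscle markers (5 of 5) to 5086 to 7912, 1616 to 2987 and 3608 to 5629 CPM in the same order of groups. In such whole-vessel RNA, fewer cells of a type and less RNA per cell cannot be told apart, and the part of these shifts in the results below was not tested.

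The 7 genes have unrelated roles. Wbp11 encodes a nuclear protein that binds WW domains and protein phosphatase 1 and works with the spliceosome. Gtpbp6 encodes a GTPase known from human cells to act on mitochondrial ribosomes, Katnbl1 a regulator of the microtubule-severing enzyme katanin, and Robo3 a receptor of the roundabout family that steers axons across the midline in mouse and human. Pidd1 encodes the scaffold of the PIDDosome, the complex that activates caspase-2, and Cfap99 is named as a cilia and flagella associated protein. Genomes hold near-identical copies of some genes, and a read that matches 2 copies equally well cannot be placed by its sequence. Counting programs may then divide it between the copies, which gives a fractional count for each.

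Wbp11 had 1036.84, 923.77 and 990.47 estimated counts in the BXD libraries, 0.03, 1.22 and 78.24 in the model libraries, and 650.13, 649.27 and 669.72 in the control libraries. It was near 0 in 2 of the 3 model libraries and low in the third, and its groups did not overlap, with BXD highest and model lowest. Wbp11l1 had 133.16, 248.23 and 194.53 estimated counts in BXD, 1134.97, 1359.78 and 1313.76 in model, and 97.87, 130.73 and 97.28 in control libraries. Here the model libraries stood far above all others. On the CPM scale Wbp11l1 averaged 15.1 ± 4.19 CPM in BXD, 107 ± 12.8 CPM in model and 7.42 ± 0.929 CPM in control libraries, against 77.9 ± 7.56, 2.02 ± 3.40 and 45.1 ± 2.57 CPM for Wbp11 (SD, n = 3 each).

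**Figure D1:**
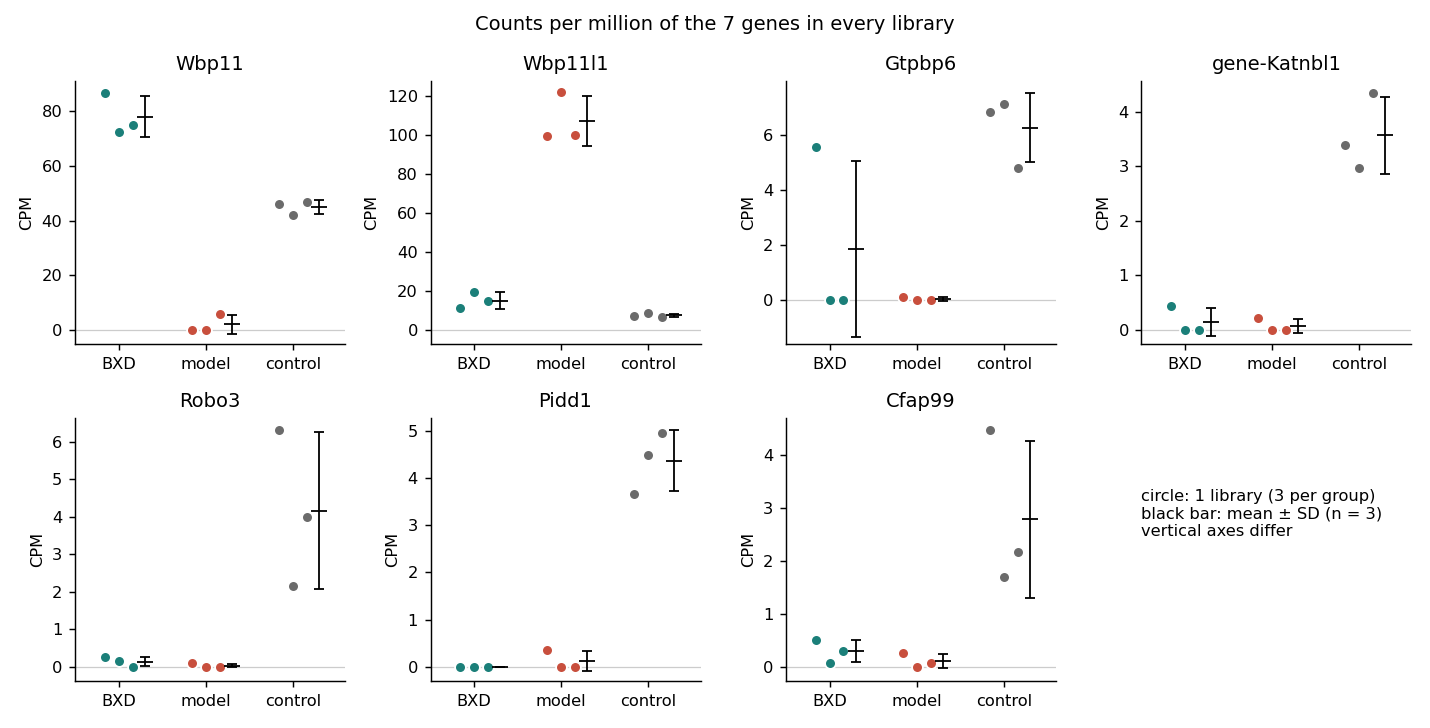
Levels in CPM (vertical axis, a separate linear scale for each gene) of the 7 genes in BXD, model and control libraries; each circle is 1 library and each black bar the mean ± SD (n = 3). Wbp11 and Wbp11l1 show opposite orders of model against BXD and control, and for the other 5 genes the control libraries are high while the others are near 0, apart from Gtpbp6 in BXD replicate 1.

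The counts of both Wbp11 rows were fractional in all 9 libraries, yet their sum was a whole number in each. The sum was 1170, 1172 and 1185 in BXD, 1135, 1361 and 1392 in model, and 748, 780 and 767 in control libraries. The near absence of Wbp11 from the model libraries is thus not seen in the sum, which was higher in every BXD and model library than in any control library. It averaged 93.0 ± 4.22 CPM in BXD, 109 ± 11.6 CPM in model and 52.5 ± 1.64 CPM in control libraries (SD, n = 3 each), or 177% of control in BXD and 208% in model. The BXD and model libraries did not overlap in CPM, but they did in summed TPM, the table's scale corrected for gene length: 53.5 ± 2.50 in BXD, 56.0 ± 3.16 in model and 36.9 ± 0.327 in control libraries.

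Wbp11 held 88.6, 78.8 and 83.6% of the sum in the BXD libraries, 0.00264, 0.0896 and 5.62% in the model libraries, and 86.9, 83.2 and 87.3% in the control libraries. For model replicates 1, 2 and 3 the exact (Clopper-Pearson) 95% intervals were 0 to 0.324%, 0.00186 to 0.409% and 4.45 to 6.94%, on counts rounded to whole numbers. These intervals cover counting error only, and treat any divided reads as if they had been placed. The shares of the control libraries lay within the range of the BXD libraries, and those of the model libraries far below both.

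**Figure D2:**
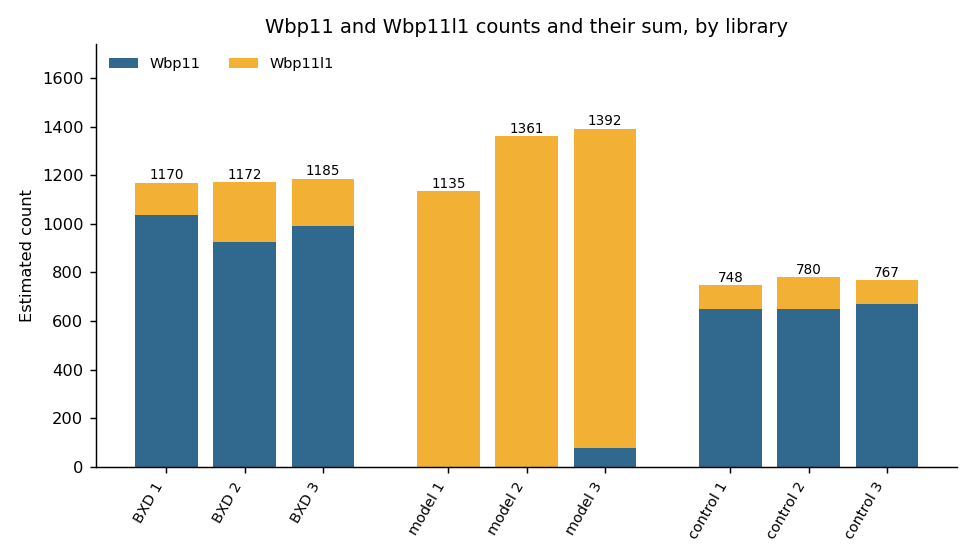
Estimated counts (vertical axis, linear from 0) of Wbp11 (lower segment) and Wbp11l1 (upper segment) stacked for each library, with the sum printed above each bar. The model bars consist almost wholly of Wbp11l1 and the BXD and control bars mostly of Wbp11, while the sums run from 1135 to 1392 in BXD and model libraries and from 748 to 780 in control libraries.

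Both rows lie on chromosome 4 of the Rnor_6.0 build on the minus strand, Wbp11 at chr4:170772166-170785613 and Wbp11l1 at chr4:170154257-170167724. They are 604 kb apart and span 13448 and 13468 bases, each with 2 listed transcripts. The deposited table gives Wbp11l1 as another symbol of Wbp11, and RefSeq's gene list for the GRCr8 build has it as a synonym of Wbp11 with no entry of its own. A gene neighbouring Wbp11, the histone gene H2afj, and one neighbouring Wbp11l1, LOC103690002, also had counts that added to whole numbers with each other.

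A search of the whole table, chosen after the counts were seen, asked how common such pairs are. Of 2262 genes fractional in at least 4 libraries, 1570 had exactly 1 other gene whose counts added to theirs within 0.015 of a whole number in every such library, 660 had none and 32 had more. Pairs in which each gene was the other's sole partner numbered 784, took in 8.27% of all genes, and lay on the same chromosome in 626 cases. Wbp11 with Wbp11l1, Gtpbp6 with LOC100912590, and gene-Katnbl1 with Katnbl1 were each other's sole partners.

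Gtpbp6 had 66.53, 0 and 0 estimated counts in the BXD libraries, 1.22, 0 and 0.10 in the model libraries, and 96.28, 109.25 and 68.53 in the control libraries. BXD replicate 1 lay within the control range in CPM, while the other BXD libraries and all model libraries were near or at 0. Its partner LOC100912590 had 215.47, 244 and 260 estimated counts in BXD, 245.78, 291 and 226.9 in model, and 136.72, 123.75 and 152.47 in control libraries. This row was lower in every control library than in any other.

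The sum of Gtpbp6 and LOC100912590 was 282, 244 and 260 in BXD, 247, 291 and 227 in model, and 233, 233 and 221 in control libraries. In counts the model and control libraries overlapped. In CPM the sum averaged 20.8 ± 2.41 in BXD, 21.7 ± 4.42 in model and 15.7 ± 0.734 in control libraries (SD, n = 3 each), or 132% and 138% of control in BXD and model. In summed TPM it averaged 19.99 ± 2.39, 18.48 ± 2.65 and 18.87 ± 0.664 in the same order. On that scale all groups overlapped and the model mean lay below the control mean. The size of the excess over control in CPM thus depends on the scale. The 2 rows lie on chromosome 12 on the plus strand, Gtpbp6 at chr12:52637000-52640869 and LOC100912590 at chr12:52670809-52674768, 29.9 kb apart. Each is followed by a gene on the opposite strand, Plcxd1 after 69 bases and LOC100909600, which RefSeq calls Plcxd1, after 68 bases.

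The row gene-Katnbl1 had 5.37, 0 and 0 estimated counts in the BXD libraries, 2.42, 0 and 0 in the model libraries, and 47.65, 45.72 and 61.85 in the control libraries. Every BXD and model library was far below every control library. The row Katnbl1 had 191.63, 409 and 419 estimated counts in BXD, 261.58, 217 and 312 in model, and 264.35, 292.28 and 264.15 in control libraries, with BXD replicate 1 lowest of all. The sum was 197, 409 and 419 in BXD, 264, 217 and 312 in model, and 312, 338 and 326 in control libraries, and the BXD libraries fell on both sides of the others.

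In CPM the Katnbl1 sum averaged 26.7 ± 8.90 in BXD, 22.1 ± 2.31 in model and 22.3 ± 0.475 in control libraries (SD, n = 3 each), which is 120% and 99.0% of control. In summed TPM it averaged 13.7 ± 4.53, 10.2 ± 1.68 and 15.3 ± 0.447 in the same order, with every model library below every control library. Both rows lie on chromosome 3 on the plus strand, gene-Katnbl1 at chr3:103511653-103513498 and Katnbl1 at chr3:103866123-103907745, 353 kb apart. They differ in extent, since gene-Katnbl1 spans 1846 bases and Katnbl1 41623 bases.

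**Figure D3:**
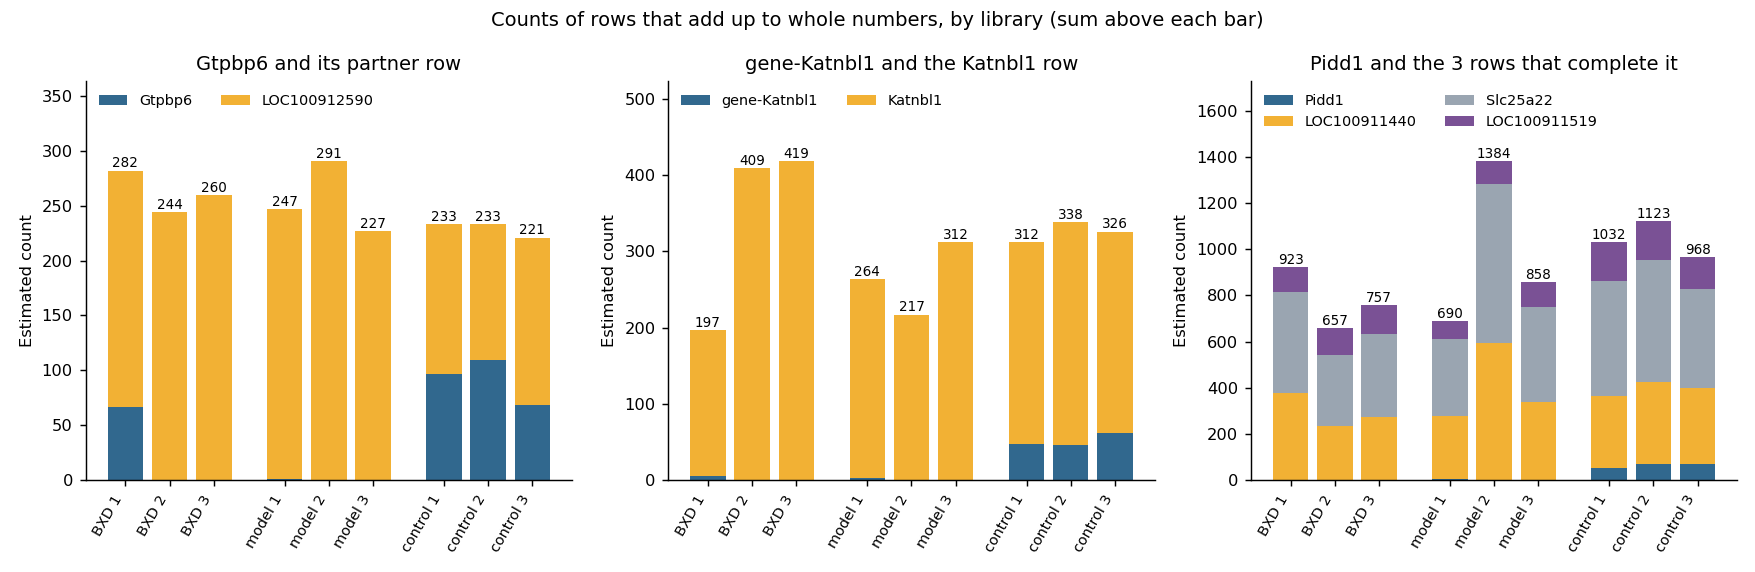
Estimated counts (vertical axes, linear from 0, a separate scale for each panel) by library for Gtpbp6 with LOC100912590, gene-Katnbl1 with Katnbl1, and Pidd1 with the 3 rows that complete its counts to whole numbers; the sum stands above each bar. Gtpbp6, gene-Katnbl1 and Pidd1 form the lowest segments, visible in the control libraries and in BXD replicate 1 for Gtpbp6.

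Pidd1 was at 0 in all 3 BXD libraries, had 4.09, 0 and 0 estimated counts in the model libraries, and 51.58, 69.07 and 70.57 in the control libraries. These are estimated counts, which may in part come from divided reads, so no fold is given against the libraries at 0. It lies on the minus strand at chr1:214418751-214423959. Its counts were fractional in the 4 libraries where it was above 0, and no single gene made them whole.

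A second search, also chosen after the counts were seen, tried all 1793 combinations of up to 3 of the 22 fractional genes within 500 kb of Pidd1. Exactly 1 combination gave whole sums with Pidd1 in all 9 libraries and not without it: Slc25a22, which encodes a mitochondrial glutamate carrier, with LOC100911440 and LOC100911519, for which the files give no gene name. Slc25a22 (chr1:214410388-214418236) lies just below Pidd1 in coordinates and LOC100911440 (chr1:213973482-213979016) starts just below LOC100911519 (chr1:213976399-213988807), which it overlaps, all on the minus strand. The 4 rows summed to 923, 657 and 757 in BXD, 690, 1384 and 858 in model, and 1032, 1123 and 968 in control libraries. In these counts model and control libraries overlapped, while every BXD library was below every control library. In CPM the sum averaged 61.9 ± 13.4 in BXD, 83.2 ± 35.4 in model and 71.3 ± 3.03 in control libraries (SD, n = 3 each). The BXD and model means were 86.8% and 117% of control.

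LOC100911519 alone had 106.05, 114 and 124 estimated counts in the BXD libraries, 77.91, 101 and 108.1 in the model libraries, and 170.51, 169.08 and 141.64 in the control libraries. Unlike the partner rows of Wbp11 and Gtpbp6, it was highest in the control libraries, as Pidd1 was. Pidd1 and LOC100911519 together had 106.05, 114 and 124 in BXD, 82.0, 101 and 108.1 in model, and 222.09, 238.15 and 212.21 in control libraries, without overlap between control and the others. Whether and how reads were divided between LOC100911519 and LOC100911440, where these overlap, is not known.

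Robo3 had 3, 2 and 0 counts in the BXD libraries, 1, 0 and 0 in the model libraries, and 89, 33 and 57 in the control libraries. Cfap99 had 6, 1 and 4 counts in BXD, 3, 0 and 1 in model, and 63, 26 and 31 in control libraries. For both genes every control library was far above every BXD and model library, and control replicate 1 was highest. All of these counts are whole, so the search for a completing row did not take in either gene.

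Robo3 lies on the minus strand at chr8:39892792-39923735, with 4 listed transcripts, and its last 29 bases overlap the end of LOC100911068, a gene on the plus strand that RefSeq calls Robo4, the endothelial member of the family. The sources do not say whether counting used strand, so reads from the overlap cannot be told apart. LOC100911068 had 1907.06, 1829.25 and 1570.46 estimated counts in BXD, 1636.45, 1421.35 and 1430.27 in model, and 1005.25, 1030.81 and 990.95 in control libraries. It rose in BXD against control (log2 change 1.02, SE 0.14, edgeR adjusted p = 0.00142) and in model against control (log2 change 0.87, SE 0.14, edgeR adjusted p = 0.00181), opposite in direction to the Robo3 counts. It is itself 1 gene of a whole-sum pair, with the row named Robo4.

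Cfap99 lies on the minus strand at chr14:81685428-81725165, with 8 listed transcripts. All 5 multiciliated cell markers were in the table. They summed to 4.47 to 5.01 CPM in BXD, 2.69 to 3.19 CPM in model and 9.81 to 11.1 CPM in control libraries, highest in control as for Cfap99. Most of that sum was Ccdc39, while Foxj1, the master regulator of motile cilia, reached at most 0.0755 CPM in BXD, 0.0896 CPM in model and 0.142 CPM in control libraries. In the same order, Dnah5 reached at most 1.75, 0.152 and 0.142 CPM, Rsph1 0.226, 0.263 and 0.195 CPM, and Dnai1 0.0785, 0.152 and 0.195 CPM. Dnah5 thus peaked in BXD and Rsph1 in model libraries. The part of these markers in the Cfap99 counts was not tested.

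The promoters of Robo3, Pidd1 and Cfap99 are shown because no single partner row was found for these 3 genes. For Robo3 and Cfap99, whole in every library, none was sought. Each runs from 250 bases before to 50 bases after the start that RefSeq gives in the GRCr8 build, 5′ to 3′ along the gene, all on the minus strand: chr8:45340173-45340472 for Robo3, chr1:205971551-205971850 for Pidd1 and chr14:80692704-80693003 for the first of 2 Cfap99 starts. Capitals mark the GC box GGGCGG or its reverse complement CCGCCC.
Robo3: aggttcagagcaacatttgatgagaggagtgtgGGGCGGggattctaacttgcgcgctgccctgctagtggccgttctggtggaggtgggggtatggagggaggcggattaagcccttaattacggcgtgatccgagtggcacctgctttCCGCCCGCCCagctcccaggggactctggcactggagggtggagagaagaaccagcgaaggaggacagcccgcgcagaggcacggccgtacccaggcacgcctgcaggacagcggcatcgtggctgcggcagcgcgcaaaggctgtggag
Pidd1: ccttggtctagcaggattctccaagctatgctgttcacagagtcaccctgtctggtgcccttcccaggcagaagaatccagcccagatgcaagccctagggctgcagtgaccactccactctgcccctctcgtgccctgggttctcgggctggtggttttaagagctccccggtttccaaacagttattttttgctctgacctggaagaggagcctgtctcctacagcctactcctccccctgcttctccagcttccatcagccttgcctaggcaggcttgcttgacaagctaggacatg
Cfap99: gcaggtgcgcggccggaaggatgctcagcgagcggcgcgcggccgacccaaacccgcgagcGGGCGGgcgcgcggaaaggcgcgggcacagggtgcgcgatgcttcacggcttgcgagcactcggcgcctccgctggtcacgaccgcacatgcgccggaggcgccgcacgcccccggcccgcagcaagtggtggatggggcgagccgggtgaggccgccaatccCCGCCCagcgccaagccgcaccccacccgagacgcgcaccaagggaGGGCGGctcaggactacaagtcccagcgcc
Robo3 and Cfap99 each held 3 GC boxes, with 21 and 45 CG dinucleotides, while Pidd1 held no GC box and 3 CG dinucleotides. The second Cfap99 start that RefSeq lists, not printed, held 0 GC boxes and 2 CG dinucleotides, so for Cfap99 the count depends on the start taken. Over all 33469 rat promoters of this length, 33.1% held a GC box on either strand and the median was 7 CG dinucleotides. A match is a description of these letters only, and promoters were matched for 5 of the 7 genes, not for Wbp11 or Wbp11l1.

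Set against control, 2 of the 7 genes were higher without overlap in the BXD libraries (Wbp11 and Wbp11l1) and 4 lower (Robo3, Pidd1, Cfap99 and gene-Katnbl1), where 23.8% and 24.8% of the 14643 genes tested were higher and lower in this way. In model against control, 1 was higher (Wbp11l1) and the other 6 were lower, beside 28.9% and 29.4% of genes tested. In BXD against model, Wbp11 was higher and Wbp11l1 lower without overlap and the other 5 genes overlapped, beside 10.5% and 11.8% of genes tested. Since the genes were chosen for this pattern, nothing is read from these counts. BXD and model share the control libraries, so their changes against control are not independent.

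The library with the highest count was looked up inside each group. Among Gtpbp6, gene-Katnbl1, Robo3, Pidd1 and Cfap99, replicate 1 had the highest count of the BXD group for 4 genes, and Pidd1 was at 0 throughout that group. That count was 66.53 for Gtpbp6 but only 3 to 6 for gene-Katnbl1, Robo3 and Cfap99. In the model group replicate 1 was highest for all 5, at only 1 to 4.09 counts, and in the control group for 2. Apart from Gtpbp6, these BXD and model differences are of a few counts near 0. Wbp11 differed, with its highest model count in replicate 3.

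Over the whole table, 215 genes (1.13%) had a library at 1 count or fewer and another at 50 or more, among them 6 of the 7 genes, with Wbp11l1 the exception. Counts of 131 of the 215 were whole in every library, as for Robo3 and Cfap99. In whole-sum pairs were 39 (18.1%), against 8.27% of all genes, and for each of the 39 the sum with the partner stayed above 1 count in every library, with a median ratio of the highest to the lowest sum of 1.97. The number of the 215 genes at 1 count or fewer was 30, 66 and 34 in BXD, 111, 50 and 103 in model, and 76, 78 and 88 in control libraries, so such low values occurred in every library.

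Few genes separated whole groups this way. Every BXD library was at 1 count or fewer and every control library at 20 or more for 4 genes (0.0211%), Pidd1, Smad9, LOC679565 and LOC306079. The same held of model against control for 2 genes (0.0105%), Robo3 and LOC103690175. In the other direction, LOC100909849 and Gal met this rule with control at 1 or fewer and BXD at 20 or more (0.0105%), and the same genes with Elovl6 did so for control and model (0.0158%). LOC103690173 alone was at 1 or fewer in BXD and at 20 or more in model libraries (0.00527%), and 0 genes met the reverse. All of these genes are named after their values were seen. With limits of 3 or fewer and 50 or more, Robo3 dropped out and Gtpbp6 and Rpl30 came in for model against control, Klrc3 stood in place of Smad9 for BXD against control, and Gal alone remained for control at the low end against BXD and Elovl6 alone against model.

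Several of these rows are in whole-sum pairs whose sums do not show the switch. LOC100909849 was at 0 in control libraries, yet its sum with Fzd8, a Wnt receptor, was 190, 207 and 250 in BXD, 220, 192 and 175 in model, and 491, 511 and 482 in control libraries, highest in control. Elovl6, a fatty acid elongase, was also at 0 in control libraries, while its sum with LOC102549542 was 664, 437 and 431 in BXD, 1065, 1299 and 834 in model, and 3179, 1087 and 1095 in control libraries. LOC103690175 and LOC306079 are paired with Phf6 and Rpl14, and those sums were at least 238 and 5169 in every library. LOC679565 and LOC103690173 had fractional counts and no single partner, and the counts of Smad9 and Gal were whole.

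Genes whose levels were most like those of the 7 were found by Pearson's r of log2(CPM + 0.5) over the 9 libraries, which share depth and group structure, so r is a description. Gtpbp6 was closest to Rpl30 (r = 0.996), which encodes a protein of the large ribosomal subunit. Rpl30 had 1659.87, 0 and 0 estimated counts in BXD, 0, 2.82 and 0 in model, and 2252.64, 2371.67 and 917.53 in control libraries, high in the same 4 libraries as Gtpbp6. It too is in a whole-sum pair, with LOC100362027, and that sum ran from 4479 to 4585 in BXD, 3857 to 4964 in model and 3396 to 4524 in control libraries.

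The closest gene was Pias3 for Pidd1 (r = 0.993), Tp53bp1 for gene-Katnbl1 (r = 0.993) and Sipa1 for Robo3 (r = 0.984). Cfap99 was equally close to LOC102546678 and Prrg3 (r = 0.987), a pair of rows with identical mean levels. For Wbp11 it was Dmbt1 (r = 0.950), and for Wbp11l1 Eif4e2 (r = 0.979). By Spearman's rho none of these genes, Rpl30 included, was among the 3 closest, so the order rests on the measure. Tp53bp1, which encodes a DNA damage response protein, averaged 24.4 CPM in BXD, 24.3 CPM in model and 49.7 CPM in control libraries.

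Genes related to the 7 by complex, broader pathway or only by symbol were tested in a fit of all 14643 genes. The test was edgeR's quasi-likelihood test, with Benjamini-Hochberg adjustment and a call at 0.05. In BXD against control 30.3% of genes were called (16.1% higher, 14.3% lower), and in model against control 42.2% (21.6% higher, 20.6% lower). In BXD against model 0.0615% were called (0.0546% higher, 0.00683% lower). Over 6 lists of such genes, 17 of 97 tested were higher and 9 lower in BXD against control, and 26 higher and 16 lower in model against control. Scaling by library size alone, which shifts the median of all genes from -0.01 to -0.28 on the log2 scale in model against control, gave 12 higher and 25 lower in BXD and 9 higher and 33 lower in model, so the balance of directions rests on the scaling.

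Of 20 genes of splicing and protein phosphatase 1 listed for Wbp11, 6 were higher and 2 lower in BXD against control. In model against control 9 were higher and 3 lower. The median log2 change was 0.11 in BXD and 0.22 in model, beside -0.02 and -0.01 over all genes. Levels of genes in the lists are means ± SD of the 3 libraries of a group. Sf3b1, of the branch-point complex, and Ppp1cb, a catalytic subunit of protein phosphatase 1, rose, by 0.55 and 0.82 in BXD and 0.62 and 0.61 in model on the log2 scale. Prpf40b fell by 0.85 in BXD and by 0.98 in model libraries. Pqbp1, which binds Wbp11, averaged 22.2 ± 2.13 CPM in BXD, 23.8 ± 0.770 CPM in model and 20.3 ± 0.535 CPM in control libraries and was not called.

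Of 16 mitochondrial translation genes tested, the list chosen for Gtpbp6, 1 was lower in BXD against control, and 5 were higher and 1 lower in model against control. The elongation and recycling factors Gfm1 and Gfm2 averaged 46.6 ± 4.65 and 18.1 ± 1.38 CPM in BXD, 68.0 ± 23.2 and 27.0 ± 8.61 CPM in model, and 41.9 ± 5.40 and 17.2 ± 1.14 CPM in control libraries. Guf1 and Tsfm, also elongation factors, rose in model libraries by 0.66 and 0.67 on the log2 scale (edgeR adjusted p = 0.0154 and 0.0172). None of these 4 calls held with library size alone, and each was also lost without control replicate 2 and without control replicate 3.

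Of 17 Robo and Slit signalling genes tested, 2 were higher and 1 lower in BXD against control, and 3 higher and 4 lower in model against control. The other receptors did not share the pattern of Robo3: Robo1 averaged 2.18 ± 1.04, 3.17 ± 1.74 and 1.61 ± 0.434 CPM and Robo2 0.867 ± 0.138, 1.38 ± 0.298 and 1.10 ± 0.118 CPM in BXD, model and control libraries, and neither was called. The list holds the row named Robo4, at 6.42 ± 4.97, 6.58 ± 0.726 and 4.39 ± 1.10 CPM, also without a call. Its larger partner row LOC100911068, which rose, is not in the list. With whole-sum pairs summed, Robo4 was called higher in both comparisons with control. Slit2, a ligand in this list, averaged 40.6 ± 9.85 CPM in BXD, 22.9 ± 6.88 CPM in model and 40.0 ± 11.5 CPM in control libraries. Its call in model against control (edgeR adjusted p = 0.0430) was lost without model replicate 2 or 3, control replicate 2 or 3, or BXD replicate 2. Slit3, at 136 ± 18.5, 112 ± 17.1 and 121 ± 18.1 CPM in the same order, was not called, and Slit1 had at most 13 counts and was below the filter. Nell2, also in the list, averaged 0.763 ± 0.395, 0.302 ± 0.187 and 0.490 ± 0.459 CPM in that order and was not called.

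Arhgap39, whose Drosophila counterpart is a GTPase activator acting with Robo, fell in BXD (by 0.82 on the log2 scale, edgeR adjusted p = 0.0141) and in model libraries (by 1.38, edgeR adjusted p = 0.00129). The actin regulator Enah rose by 0.79 in BXD and 0.56 in model, Abl1 by 0.77 and 0.58, and Sos1 rose in model by 0.41, on the log2 scale. The calls of Enah, Abl1 and Sos1 in model libraries were lost with library size alone, and that of Abl1 also without any single model or control library. In BXD libraries the call of Abl1 was lost without control replicate 2 and that of Arhgap39 without control replicate 1.

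Of 19 PIDDosome and p53 axis genes, 8 were higher and 1 lower in BXD against control, and 8 higher and 2 lower in model against control. Of the partners of Pidd1 in the complex, Casp2 averaged 31.2 ± 10.4 CPM in BXD, 28.4 ± 5.73 CPM in model and 43.9 ± 3.45 CPM in control libraries and Cradd 0.714 ± 0.282, 0.931 ± 0.335 and 1.10 ± 0.0818 CPM, both without a call. Casp2 was called in model against control by upper quartile scaling, by library size alone, by DESeq2 and without BXD replicate 1. Ankrd26, known from human cells to bring Pidd1 to the centriole, fell by 1.41 in BXD and by 1.44 in model libraries on the log2 scale (edgeR adjusted p = 0.00743 and 0.00511). The p53 targets Cdkn1a and Pmaip1 rose, to 340 ± 108 and 22.7 ± 9.05 CPM in BXD and 461 ± 92.5 and 18.5 ± 5.32 CPM in model, against 62.0 ± 22.9 and 4.24 ± 0.331 CPM in control libraries. Bid rose by 0.67 in BXD and 1.00 in model, and Fas fell in model libraries by 1.32 on the log2 scale (edgeR adjusted p = 0.00164), with 8.16 ± 0.768, 4.29 ± 0.758 and 10.7 ± 1.78 CPM in BXD, model and control.

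**Figure D4:**
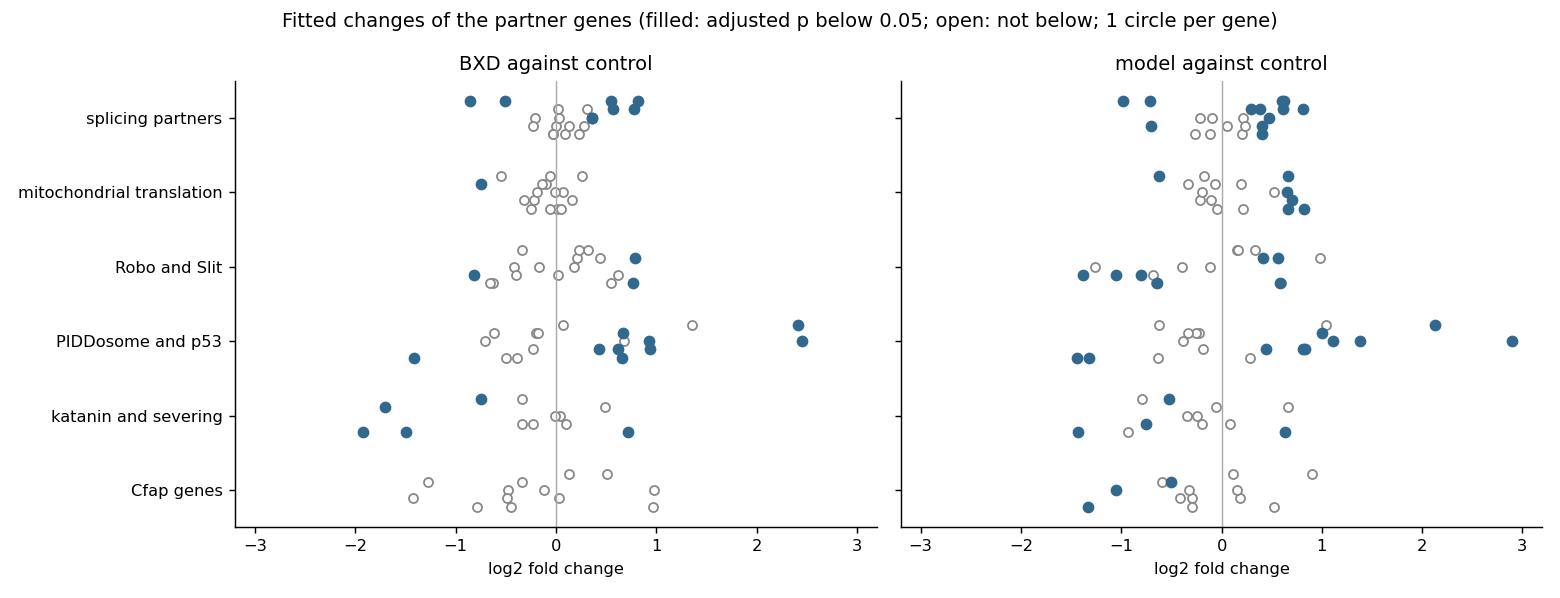
Fitted log2 fold change (horizontal axis) of each tested gene in the 6 lists, in BXD against control (left) and model against control (right); 1 circle is 1 gene, filled where its adjusted p is below 0.05, and height within a row has no meaning. Filled circles lie on both sides of 0 in most lists, with Cdkn1a and Pmaip1 farthest right in both panels.

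Of 12 katanin and microtubule-severing genes tested, 1 was higher and 4 lower in BXD against control, and 1 higher and 3 lower in model against control. The catalytic subunit Katna1 averaged 14.4 ± 2.18 CPM in BXD, 12.2 ± 0.338 CPM in model and 14.4 ± 0.755 CPM in control libraries, and Katnal1 1.98 ± 1.07, 2.28 ± 0.382 and 1.43 ± 0.292 CPM, both without a call, and Katnal2 had at most 6 counts. Katna1 was called in model against control with library size alone and on FPKM. The spindle protein Aspm fell by 1.50 in BXD and by 1.43 in model, Camsap1 fell by 0.75 in model, and Ndel1 rose by 0.72 in BXD and 0.63 in model, all on the log2 scale, the model call of Ndel1 being lost with library size alone and without control replicate 2.

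Of 13 other Cfap genes tested (22 in the table), 3 were lower in model against control: Cfap45 by 1.05, Cfap100 by 1.34 and Cfap20 by 0.51 on the log2 scale (edgeR adjusted p = 0.00824, 0.00953 and 0.0183), the call of Cfap20 being lost without model replicate 2 or control replicate 3. In BXD against control 0 passed with edgeR and 6 had an unadjusted p under 0.05. These 3 genes averaged 3.99 ± 0.470, 1.74 ± 0.302 and 17.9 ± 1.48 CPM in BXD, between their model and control means. Library size alone, however, gave a call for all 3.

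In BXD against model, edgeR called 0 of the 97 list genes and 0 of the 39 neighbours, with 17 and 11 at an unadjusted p under 0.05, while DESeq2 called 7 and 5. A miss in this comparison does not show that levels were alike.

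Genes next to the 7 on their chromosomes were counted in the same fit. Of the 27 neighbours outside whole-sum pairs, 2 were higher and 2 lower in BXD against control (14.8% called), and 3 higher and 5 lower in model against control (29.6% called). Beside Robo3, the endothelial adhesion gene Esam averaged 137 ± 5.04 CPM in BXD, 91.4 ± 8.94 CPM in model and 124 ± 23.9 CPM in control libraries. Beside Cfap99, Rnf4, which encodes a SUMO-targeted ubiquitin ligase, rose by 0.58 in BXD and 0.53 in model on the log2 scale (edgeR adjusted p = 0.00338 and 0.00344, the second call being lost with library size alone). Beside Wbp11, the calcification inhibitor Mgp averaged 713 ± 167 CPM in BXD, 392 ± 60.7 CPM in model and 617 ± 116 CPM in control libraries. Of the nearest 6 neighbours of Pidd1, Rplp2, Pnpla2, Cracr2b and Pddc1 were each in a whole-sum pair with an unnamed row, and Slc25a22 is in the whole-sum set of Pidd1 itself.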

How the data were processed

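Poly-A RNA-seq libraries of rat gastric lymphatic vessels were grouped by title into BXD, model and control (3 each). The submitters' processing notes name HISAT2 2.2.4, Bowtie2 2.2.5 and the Rnor_6.0 build, and no source used here states which program estimated the counts. The deposited expression table holds estimated counts with 2 decimals, of which 87.5% of values above 0 are whole, and the authors' FPKM and TPM values. Coordinates are those of the authors' deposited gene table, and 45 per-sample columns (normalized or repeated values) were not used. Counts were rounded and fitted with edgeR 4.0.16 (R 4.3.3; TMM scaling, filterByExpr, group as the only factor), tested on simulated data. CPM uses TMM library sizes.

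The alternatives were RLE, upper quartile and library-size scaling, no filter, DESeq2 1.42.0, limma 3.58.1 (voom, and log2(FPKM + 0.1)), a replicate block and leaving out each library. The 7 genes, the lists and the tests were chosen with earlier results of these data known. The text names the 7 genes and their partner rows, the 3 most similar genes of each (the closest is printed), neighbours, and in each list up to 4 called genes with the smallest p in model against control, with the subunits and receptors of the PIDDosome, katanin and Robo-Slit lists. Some genes that this rule names are not reported here. Nerve and glia and lymphocyte markers summed to 376 to 619 and 6.42 to 28.7 CPM in BXD, 367 to 630 and 9.81 to 70.8 CPM in model, and 378 to 657 and 9.64 to 14.4 CPM in control libraries.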

Additional observations from a re-analysis of the deposited data

How the results depend on the processing

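The number of genes called in BXD against model was 9, and it was 16 with no filter on low counts, 1129 with DESeq2, 3 with limma-voom, 26 with limma on log2(FPKM + 0.1) and 1 with the replicate block. It ran from 1 to 154 when single libraries were left out, the highest being without BXD replicate 1. DESeq2 called 7 list genes and 5 neighbours there, and leaving out libraries gave 0 to 1 neighbours. In BXD against control, 40 list genes were called on FPKM instead of 26, calls ran from 2728 (without control replicate 2) to 4775 over the left-out libraries, beside 4444, and list calls ran from 17 (without control replicate 1) to 29. In model against control, list calls ran from 27 (without control replicate 2 or 3) to 49, beside 42, and neighbour calls to 8 without model replicate 2 or control replicate 3, beside 13.

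As a share of control, the sum of Wbp11 and Wbp11l1 was 153% in BXD and 172% in model with library size alone and on FPKM. By the same 2 alternatives, the Gtpbp6 sum was 114% and 112% in BXD and 113% and 111% in model. The Katnbl1 sum was 104% and 94.8% in BXD and 82.4% and 74.9% in model. Higher calls made up 51.2% of calls in model against control with TMM scaling, 37.7% by upper quartile, 24.8% without scaling factors and 25.3% on FPKM, and in BXD against control 2355 of 4444 with TMM scaling and 37.2%, 27.6% and 26.6% by the others. Same-numbered libraries did not deviate together (r from -0.426 to 0.102, beside -0.213 to 0.285 for differently numbered libraries). With groups of 3 libraries this cannot show whether the numbers pair samples. The replicate block gave 5365 calls in model against control and 3663 in BXD against control. Summing whole-sum pairs before the fit, chosen after seeing the data, gave 4400, 6085 and 7 calls in BXD against control, model against control and BXD against model, and kept all of the 4079, 5657 and 6 calls outside pairs. Of the single-gene values under the alternatives, 4487 stayed on their side of the threshold, 232 lost a call, 161 gained a call and none of the called changed sign. The cause of these shifts was not tested. Groups of 3 libraries and counts of a few per library limit what can be seen of Robo3, Pidd1 and Cfap99.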
